A study of Mus musculus with 6 samples.

Results

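SPP1 (osteopontin), its receptor CD44 and 7 further matricellular genes (TNC, THBS1, THBS2, SPARC, POSTN, SMOC1 and SMOC2) were followed in PA6 cells, a murine stromal line, at the start of the response to growth factors. These 9 genes, taken with every probe that carries their symbol on the array, are 9 of 30854 gene names. Confluent PA6 monolayers spent 3 h in serum-free medium that held no growth factor (-GFs), FGF2 at 20 ng/ml, or BMP4 at 10 ng/ml as the labels state (the methods for the co-cultures with ES cells give a lower dose). Each group had 2 biological replicates, and the RNA of each was read on 1 array of the Illumina MouseWG-6 v2.0 BeadChip type, 6 arrays in all. The cells of all groups are the same line in the same serum-free medium, no ES cells were present, and each replicate consisted of 1 well per condition. Nothing in the labels says whether the replicates came from separate thaws or passages. Treatment tests without the replicate number in the model measure the spread between such wells. Where the replicate number is in the model, the difference between the sets is removed, and the tests measure the scatter left within them.

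The genes were selected with their response to FGF2 on these same arrays in view. SPP1 was picked as one of the largest rises with FGF2, and the others were added as its family with earlier results known. The FGF2 values of the 9 genes are therefore a description without a test, and tests of the members are given for BMP4 and for the difference between replicate numbers, with the limit that the -GFs arrays serve both growth factors. Lists of receptors and relatives were tested with FGF2 too, and were also chosen with earlier results known.

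Matricellular proteins are secreted into the extracellular matrix, where they do not chiefly build its scaffold but bind cell surface receptors, growth factors and proteases and so modulate how cells adhere, migrate and respond to signals. Osteopontin, the SPP1 product, carries an RGD sequence that binds αv integrins and also engages CD44, the hyaluronan receptor. Tenascin-C and the thrombospondins are induced in remodelling tissue, and thrombospondin-1 activates latent TGFβ and restrains angiogenesis through CD36 and CD47. SPP1 and SPARC (osteonectin) are also known as bone matrix proteins.

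To show the regulatory sequence of the gene with the largest FGF2 response in the family, and of its receptor, the 250 bases upstream of the RefSeq start were read from the mouse build GRCm38.p6. Short motifs of factors known downstream of growth factors or in osteogenic cells were searched on both strands. They were AP-1 (letters TGANTCA), CRE (letters TGACGTCA), ETS (letters AGGAAGT), RUNX (letters AACCNCA), EGR (letters GCGNGGGCG) and the E-box (letters CACGTG). Capitals mark the matches, and the first sequence is of SPP1 on the plus strand at chr5:104434861-104435110, the second of CD44 on the minus strand at chr2:102901666-102901915.
SPP1: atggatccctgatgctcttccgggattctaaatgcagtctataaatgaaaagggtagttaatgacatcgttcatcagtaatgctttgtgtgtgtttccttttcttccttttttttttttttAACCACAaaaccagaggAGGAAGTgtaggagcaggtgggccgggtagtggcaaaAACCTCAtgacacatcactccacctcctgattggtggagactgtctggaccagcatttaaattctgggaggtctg
CD44: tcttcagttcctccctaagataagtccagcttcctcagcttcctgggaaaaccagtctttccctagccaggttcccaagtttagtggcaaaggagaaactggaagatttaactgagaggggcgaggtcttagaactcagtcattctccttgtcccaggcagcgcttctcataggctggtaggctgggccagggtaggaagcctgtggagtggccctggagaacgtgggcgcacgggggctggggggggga

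In the SPP1 window, RUNX letters stand at 129 to 123 (AACCACA) and at 75 to 69 (AACCTCA) bases before the start, and ETS letters at 112 to 106. None of the 3 matches overlaps another. Of 32851 RefSeq promoter windows of the same length, 12.6% hold the RUNX letters and 7.69% the ETS letters, so neither is rare. The CD44 window holds none of the motifs searched, and neither does the window of a second, downstream SPP1 start. Among the other members with an entry, both TNC windows share 1 EGR match (GCGGGGGCG, at 171 to 163 bases before the start in one and 250 to 242 in the other), where 4.7% of all windows have one, and THBS2, SPARC and POSTN have no match. AP-1 letters occur in 6.75% of all windows, CRE letters in 1.55% and the E-box in 6.02%, and no member's window holds them. Entries were found for 6 of the 9 genes (9 windows), and THBS1, SMOC1 and SMOC2 have none. A match is a description of the letters and no evidence of binding.

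Of 27 probes to the 9 genes, 16 were detected (detection p under 0.05, the chance of such a signal among negative control beads) on at least 1 array. A gene was tested if a probe was detected on both arrays of some group, and was represented by its brightest such probe. This left 14 probes and 7 genes. POSTN, the periostin of mesenchymal matrix, and SMOC2, a relative of SPARC, were not detected on any array. The POSTN probes lay between 129.4 and 177.8 intensity units with a lowest detection p of 0.124, and the SMOC2 probe lay between 154.3 and 179.6 with a lowest of 0.110. These are the brightness range of undetected probes, with array medians of 153.4 to 168.1, and no fold change is given for either gene.

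The arrays responded to the agents. The feedback phosphatase DUSP6, a target of ERK, had a log2 fold change of 3.55 ± 0.25 (SE, n = 2 per group) with FGF2 (limma, adjusted p = 0.00305), and the BMP-SMAD target ID1 one of 2.77 ± 0.16 with BMP4 (limma, adjusted p = 0.00941). All 9 stromal markers examined, among them COL1A1 and PDGFRB, were detected on all arrays. Between 15509 and 16459 probes were detected per array.

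SPP1 was among the most strongly raised messengers with FGF2 and lay near the detection limit without it. Its probe (ILMN_2690603) read 301.8 and 227.9 in the -GFs replicates 1 and 2, 4455.6 and 1616.5 with FGF2, and 208.5 and 184.1 with BMP4. Both FGF2 arrays were far above the 4 others, and the BMP4 arrays were the 2 lowest, the second of them not detected. After cubic spline normalization the level was 7.99 ± 0.12 (log2 intensity, SD, n = 2) in -GFs medium, 11.44 ± 0.99 with FGF2 and 7.62 ± 0.21 with BMP4. The log2 fold change with FGF2 was 3.45 ± 0.41 (SE), a 10.9-fold difference, with a 95% interval of 2.47 to 4.44, at the 99.95th percentile of the 11872 genes tested. In bulk RNA, more messenger per cell and more cells expressing the gene cannot be told apart.

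The size of the SPP1 response differed between the pairs of wells. It was 4.07 on the log2 scale in replicate 1 and 2.83 in replicate 2, while the direction was the same in both. Without FGF2 replicate 1 the log2 fold change was 2.75, and without FGF2 replicate 2 it was 4.15. With limma's neqc, which subtracts the background signal and so spreads dim values, it was 4.43. Where a probe had to be detected on all 6 arrays, SPP1 dropped out of the test because of the undetected BMP4 array.

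SPP1 is also a macrophage product, so markers of macrophages were read beside it. Of 8 such markers, PTPRC, CD68, EMR1 and ITGAM were undetected on all arrays, while LYZ2 and CD14 were detected on all. Intensity was summed over all 8, including the undetected ones, and the sum is not normalized between arrays. It was 3079.6 to 3540.9 in -GFs medium, 2876.9 to 2887.2 with FGF2 and 2865.3 to 3052.4 with BMP4. The summed stromal markers were likewise lower on the FGF2 arrays (91724.1 to 98528.8) than on the -GFs arrays (105952.7 to 119927.4). After normalization the 4 macrophage markers that could be tested had log2 fold changes of -0.27 to 0.11 with FGF2, 2 of them above 0. Of these 4, 0 were called, beside 2.28% of all genes called higher and 1.25% lower. The part of such cells in the SPP1 result was not tested.

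**Figure D1:**
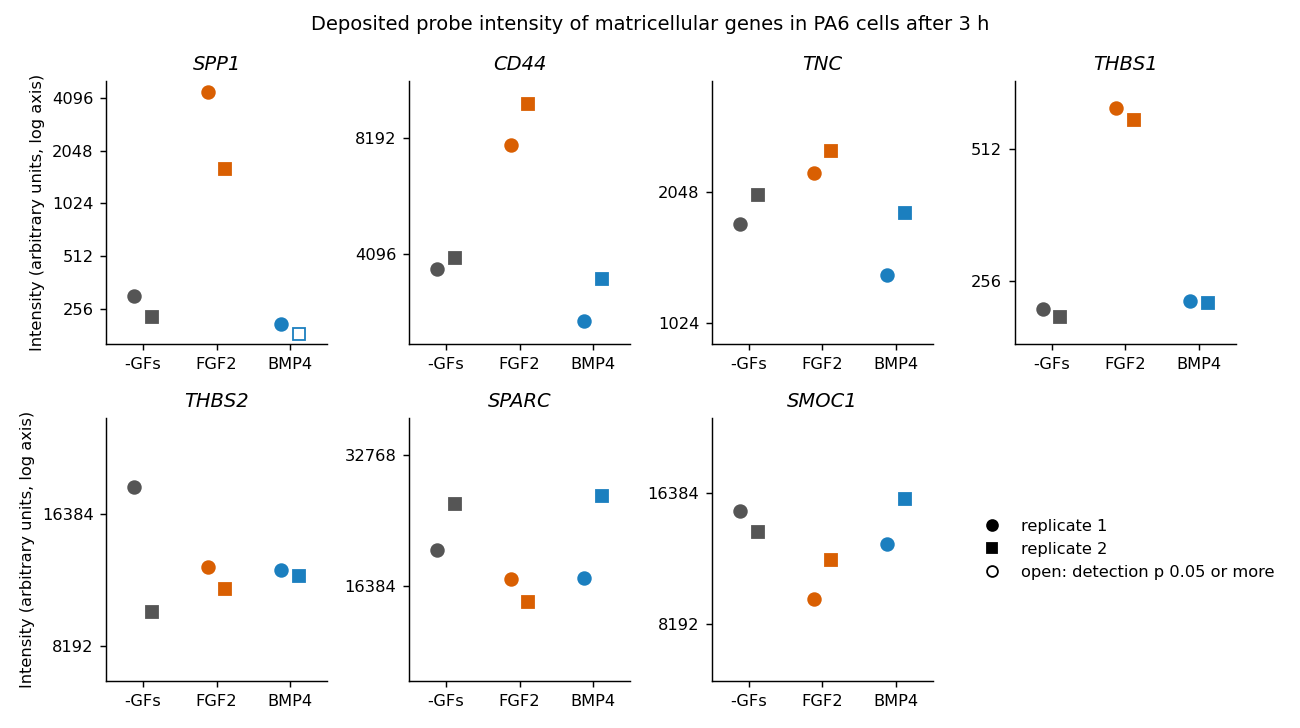
Deposited probe intensity (arbitrary units, log axis) of the 7 tested genes on each of the 6 arrays, with circles for replicate 1, squares for replicate 2 and an open symbol where the probe was not detected. SPP1, CD44 and THBS1 are higher on both FGF2 arrays than on the 4 others, while TNC, SPARC and SMOC1 show smaller gaps and the THBS2 arrays overlap.

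CD44, the receptor of hyaluronan and osteopontin, was also higher with FGF2. Its brightest probe (ILMN_1223697) read 3757.2 and 3999.3 in -GFs medium, 7846.9 and 9994.9 with FGF2, and 2756.8 and 3542.7 with BMP4. Both FGF2 values exceeded all others by a wide gap. The log2 fold change was 1.31 ± 0.19 (SE, 95% interval 0.85 to 1.76), a 2.48-fold difference, and the pairs were close at 1.27 and 1.34. A second probe (ILMN_3114585), detected on all arrays, gave 1.24. Another (ILMN_2474229) was detected on both FGF2 arrays and on no other, where it was at least 1.54-fold higher, and the other 6 CD44 probes were undetected throughout. What part of the gene each probe reads is not given in the sources used here, so the probes are not assigned to splice forms of CD44.

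THBS1, the thrombospondin that activates latent TGFβ, was dim without FGF2. The probe (ILMN_2659151) read 220.8 and 211.5 in -GFs medium, 633.9 and 595.6 with FGF2, and 229.6 and 228.0 with BMP4. The 4 arrays without FGF2 lay close together and the 2 with FGF2 well above them. The log2 fold change was 1.56 ± 0.14 (SE, 95% interval 1.22 to 1.90), or 2.95-fold, with pairs of 1.62 and 1.51. With neqc it was 2.60, so the size of the change depended on how the background was treated. A second THBS1 probe was detected on 1 FGF2 array alone, at 206.0 intensity units.

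THBS2, the sister gene of THBS1, showed no consistent direction with FGF2. It was bright on every array, at 18873.5 and 9796.5 in -GFs medium, 12416.7 and 11016.7 with FGF2, and 12221.9 and 11805.3 with BMP4. The highest and the lowest of the 6 values were both -GFs arrays, so the treated arrays lay within the spread of the untreated ones. The log2 fold change with FGF2 was -0.07 ± 0.26 (SE, 95% interval -0.69 to 0.55), and the pairs had opposite signs (-0.36 and 0.22). Without -GFs replicate 1 it was 0.30 and without -GFs replicate 2 it was -0.43. Whether THBS1 and THBS2 differ in response was not tested, since THBS1 was selected with its response known.

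TNC, the tenascin of wounds and embryonic mesenchyme, showed a small difference. Its brightest probe (ILMN_2463181) read 1729.1 and 2013.1 in -GFs medium, 2255.1 and 2541.8 with FGF2, and 1323.9 and 1832.3 with BMP4. The FGF2 arrays were the 2 highest, but by less than the gap between replicates of a group. The log2 fold change was 0.43 ± 0.22 (SE, 95% interval -0.08 to 0.95), in pairs 0.56 and 0.31, while a fit that blocks on the replicate gave an interval of 0.14 to 0.73. A second bright probe gave 0.41, and a dim one, detected on 4 arrays, gave -0.10.

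SPARC and SMOC1, which share the SPARC family's calcium-binding domain, were bright and were not higher with FGF2. SPARC (ILMN_3136561) read 19823.1 and 25224.3 in -GFs medium, 16996.3 and 15049.7 with FGF2, and 17096.6 and 26315.5 with BMP4. Both FGF2 arrays were below both -GFs arrays, and 1 BMP4 array lay with them. After normalization the log2 fold change was -0.31 ± 0.23 (SE, 95% interval -0.85 to 0.22), and pair 1 turned from a ratio of 0.857 in intensity to a log2 difference of 0.06, while pair 2 stayed at -0.68. The other 3 SPARC probes gave -0.49, -0.33 and -0.10, the same sign in all 4. SMOC1 (ILMN_1225376) read 14904.8 and 13334.1 in -GFs medium, 9336.4 and 11487.6 with FGF2, and 12466.1 and 15808.0 with BMP4. Its FGF2 arrays were the 2 lowest, with a log2 fold change of -0.31 ± 0.16 (SE, 95% interval -0.70 to 0.07) and pairs of -0.47 and -0.16. With the replicate block the SMOC1 interval was -0.62 to -0.01.

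**Figure D2:**
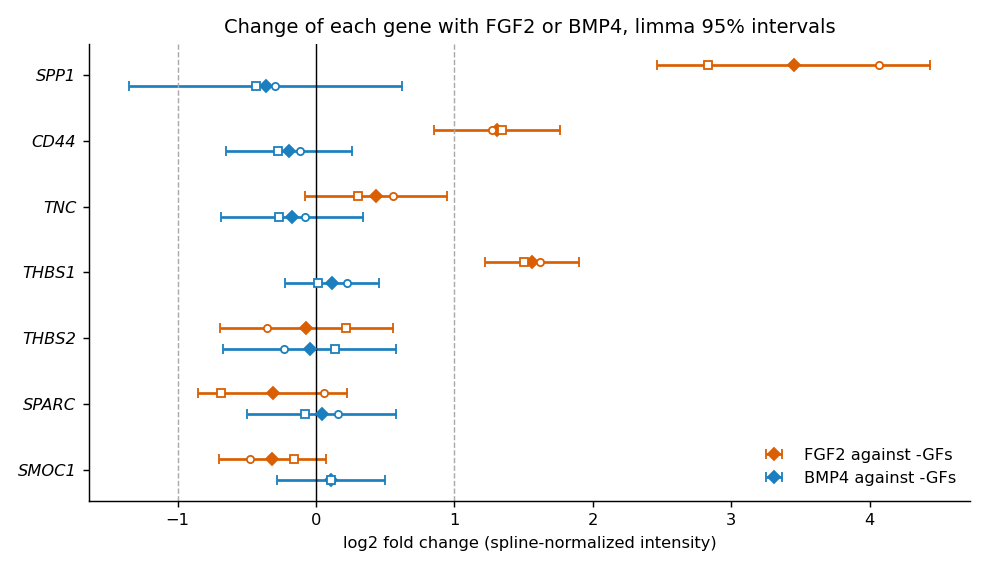
Log2 fold change of each gene with FGF2 (orange) and BMP4 (blue) against -GFs medium, with diamonds for the mean difference, bars for limma's 95% interval, small circles and squares for the pairs of replicate 1 and 2, and dashed lines at a log2 fold change of 1 in either direction. All BMP4 intervals include 0. The FGF2 intervals of SPP1, CD44 and THBS1 lie above 0, which is a description, since the genes were selected on that contrast.

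By the threshold of the methods (absolute log2 fold change over 1 and adjusted p under 0.1), 3 of the 7 tested members were past it as higher with FGF2, namely SPP1, CD44 and THBS1, and 0 as lower. Over all 11872 genes tested, 2.28% were called higher and 1.25% lower, and since the members were selected on this contrast nothing is read from their count. The median log2 fold change of the 7, 0.43 against -0.02 for all genes, carries the same selection and is likewise only a description. Without FGF2 replicate 2, CD44 was not past the threshold.

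**Figure D3:**
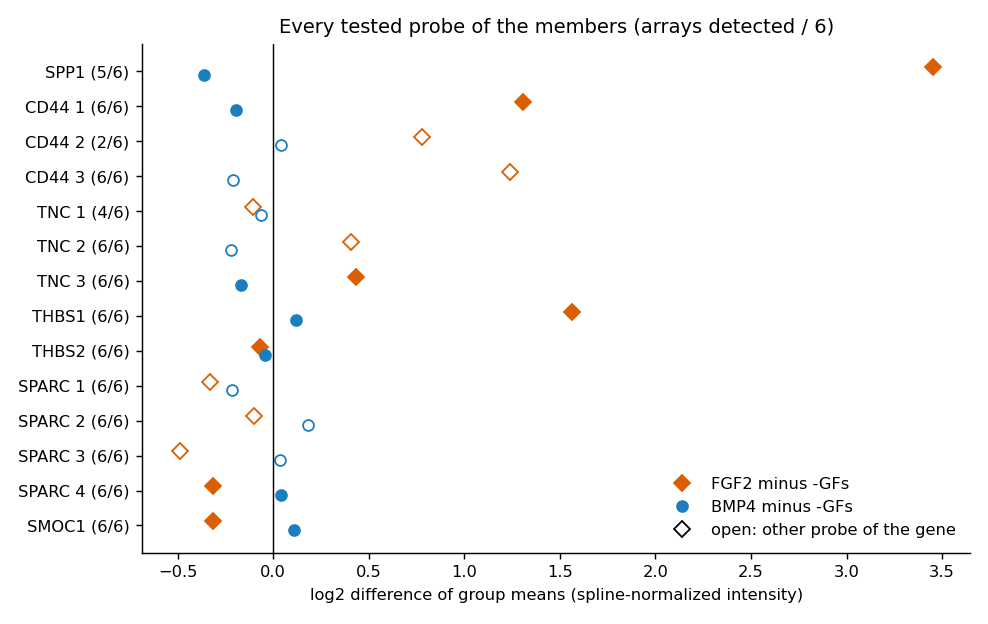
Log2 difference of group means with FGF2 (diamonds) and BMP4 (circles) for each of the 14 tested probes, numbered within a gene, with the number of arrays of 6 that detected the probe in brackets and filled symbols for the probe that represents its gene. The 3 CD44 probes lie to the right with FGF2 and the 4 SPARC probes to the left of 0, while the TNC probes straddle it.

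With BMP4, no member was past the threshold. The log2 fold change was -0.36 for SPP1 (95% interval -1.35 to 0.62), -0.20 for CD44 (-0.65 to 0.26) and -0.17 for TNC (-0.69 to 0.34). It was 0.12 for THBS1 (-0.22 to 0.46), -0.05 for THBS2 (-0.67 to 0.58), 0.04 for SPARC (-0.50 to 0.58) and 0.11 for SMOC1 (-0.28 to 0.50). For every one of the 7 the adjusted p was 0.999 (limma with Benjamini-Hochberg adjustment), and 0 of 7 had an unadjusted p under 0.05, the lowest being 0.338. Over all genes 1 was called with BMP4 (0.00842%). With the replicate block the SPP1 interval was narrower, at -0.81 to 0.08 (limma adjusted p = 0.790), and 0 members were called. The intervals leave room for changes of some size, widest for SPP1, so the absence of a call is not evidence that BMP4 left these genes as they were. For SPP1 the BMP4 level was partly below detection, which limits how far down it could be followed.

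Set directly against each other, FGF2 and BMP4 gave a log2 difference of 3.81 for SPP1, 1.44 for THBS1 and 0.60 for TNC, and CD44 differed by 1.39 and 1.62 in the pairs. It was -0.02 for THBS2, -0.35 for SPARC and -0.42 for SMOC1. These values share the FGF2 arrays with the selecting contrast and are a description, and the SPP1 value rests on a BMP4 group in which 1 of 2 arrays did not detect the probe, so its exact size is uncertain.

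The wells of replicate 2 differed from those of replicate 1 in some members at the same treatment. In a model with group and replicate number, SPP1 was lower in replicate 2 by a log2 difference of -0.62 (SE 0.17, limma adjusted p = 0.0144) and THBS2 by -0.41 (SE 0.12, adjusted p = 0.0238), while TNC was higher by 0.34 (SE 0.11, adjusted p = 0.0400). For SPP1 most of it lay in the FGF2 arrays, at 12.14 in replicate 1 and 10.74 in replicate 2, against 8.07 and 7.90 in -GFs medium and 7.77 and 7.47 with BMP4. CD44 (0.27, adjusted p = 0.104), SPARC (0.22, adjusted p = 0.249), SMOC1 (0.12, adjusted p = 0.492) and THBS1 (-0.00, adjusted p = 0.988) did not pass. Thus 3 of 7 members had an adjusted p under 0.1, beside 28.8% of all genes, so that such differences were common on these arrays. With the fold threshold added, 0 of 7 members and 1.03% of all genes were called. Each replicate number is 1 set of wells, so these p-values describe these 2 sets and not the spread between sets in general.

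The sum over markers of adipocytes, a fate open to PA6 cells, was higher in replicate 2 in each group. The summed intensity of the 6 markers was 3499.3 in replicate 1 and 5760.8 in replicate 2 in -GFs medium, 2983.5 and 5798.4 with FGF2, and 3096.4 and 7239.4 with BMP4. PPARG was detected on all arrays and FABP4 on none, and ADIPOQ, FABP4 and PLIN1 did not meet the detection requirement. The sum is not normalized between arrays, the brightest markers weigh most in it, and single markers were not compared. The part of adipocyte genes in the replicate differences of SPP1, THBS2 and TNC was not tested.

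Receptors through which these proteins act were taken as a list of 14 genes, of which 7 were tested. ITGA4, ITGA8, ITGA9, ITGB3, ITGB6, ITGB8 and CD36 did not meet the detection requirement. The 7 tested were ITGAV, ITGA5, ITGB1, ITGB5, CD47, LRP1 and CALR. With FGF2, 1 was called higher and 0 lower, beside the 2.28% and 1.25% of all genes. Of the 7 values, 4 were above 0. ITGA5, the chain that forms the classical fibronectin receptor with ITGB1, read 1196.6 and 1457.0 in -GFs medium, 6197.1 and 8173.1 with FGF2, and 932.0 and 1131.1 with BMP4. The FGF2 arrays were separated from the others by a wide gap, with a log2 fold change of 2.54 ± 0.23 (SE, limma adjusted p = 0.00546) and pairs of 2.61 and 2.47. As the list was chosen with earlier FGF2 results known, this p is not independent evidence. ITGB1 itself, named after its values were seen, gave 0.61 ± 0.26 (SE, adjusted p = 0.218). With the replicate block its adjusted p was 0.00518 (95% interval 0.29 to 0.92), still short of the fold threshold. The lowest value was that of CALR, a thrombospondin-binding chaperone, at -0.15 (adjusted p = 0.761). The median of the 7 was 0.21. With BMP4 the 7 lay between -0.26 and 0.50 with 0 called, beside 0.00842% of all genes.

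Relatives of the members in the osteopontin, tenascin, thrombospondin, SPARC and periostin families mostly did not meet the detection requirement, as with most genes. Of 16 listed, TNXB, THBS3, COMP, FSTL1 and TGFBI were tested, beside 11872 of the 30854 genes on the array. The bone relatives IBSP, DMP1, DSPP and MEPE were among the 11 that were not tested. None of the 5 was called with either factor. Over all genes 2.28% were called higher and 1.25% lower with FGF2, and 0.00842% with BMP4, so 0 of 5 says little. The largest positive value with FGF2 was that of TGFBI, the TGFβ-induced relative of periostin, at 0.58 ± 0.17 (SE). Its adjusted p was 0.0971, and 11.8% of all genes had one under 0.1 whatever their fold. The fold stayed short of the threshold, and in 11 of 16 alternative settings the adjusted p rose above 0.1, up to 0.352, while with the replicate block it was 0.00451. COMP, a thrombospondin of cartilage, had the lowest value at -0.35 (adjusted p = 0.302, or 0.0671 with the replicate block). The median of the 5 was -0.08.

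**Figure D4:**
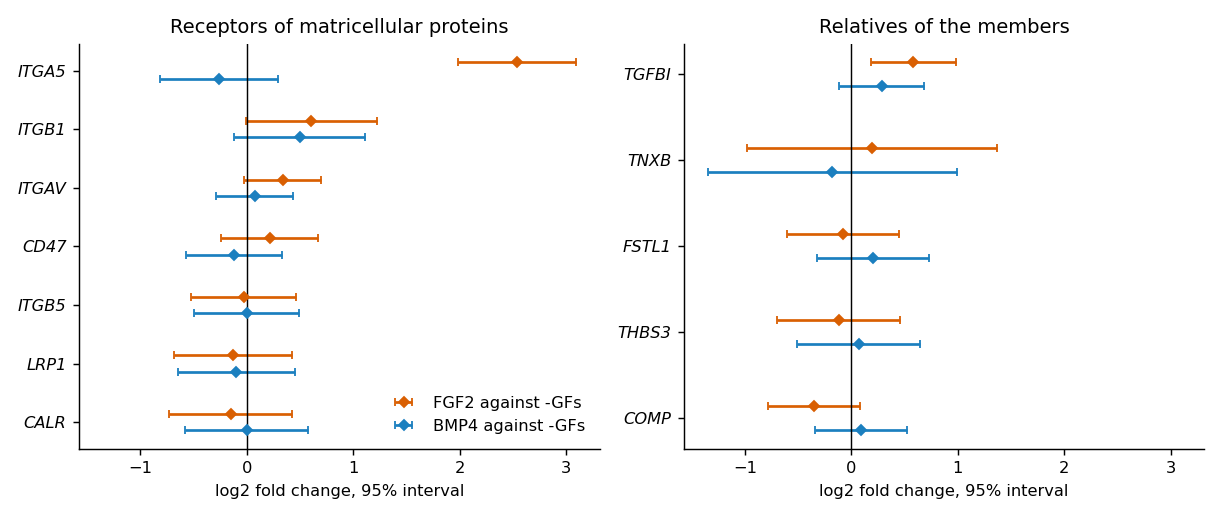
Log2 fold change with limma's 95% interval for the 7 tested receptors (left) and the 5 tested relatives (right), with FGF2 in orange and BMP4 in blue against -GFs medium. ITGA5 stands at 2.54 with FGF2 and no other gene of either list has a value above 1.

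The 5 genes whose log2 levels over the 6 arrays, taken relative to the -GFs mean, lay nearest to those of SPP1 were IVL (involucrin, a protein of the epidermal envelope), the immediate early factor EGR3, DUSP6, LOC240672 and the chromatin protein HMGA1. Their root mean square differences from SPP1 were 0.526, 0.527, 0.540, 0.558 and 0.624 log2 units, and Pearson's r lay between 0.944 and 0.977 over 6 arrays, which is a description since the FGF2 arrays set it. IVL was detected on both FGF2 arrays (1786.8 and 478.2 intensity units) and on no other, so it was at least 4.94-fold higher with FGF2 and its likeness to SPP1 rests in part on background signal. EGR3 was not detected with BMP4, and LOC240672 was detected on 1 array each of -GFs medium and BMP4. With quantile normalization the 5 nearest genes were the same, and with neqc 3 of them remained.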

How the data were processed

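The authors deposited mean bead intensity for 45281 probes, on a linear scale and not normalized between arrays, with detection p-values beside it. GenomeStudio 2011.01 is named in the submitters' processing notes. Left unused were 9 unnamed columns, filled on 2045 lines, and 6 leftover lines. The members and gene lists were chosen with earlier results of these data known.

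Arrays were normalized with a version of the methods' cubic spline written in R 4.3.3 (452 quantiles), followed by log2. A probe was kept if both arrays of some group had a detection p under 0.05 (16111 probes), and the brightest kept probe on average represented its gene (11872 genes). The limma 3.58.1 model (lmFit, eBayes) held 6 arrays in 3 groups, with 3 residual degrees of freedom and Benjamini-Hochberg adjustment over all genes. The script was tested on simulated data with independent scatter on every array, which does not cover arrays of a replicate number deviating together. The threshold for a call was that of the methods, an adjusted p under 0.1 together with a log2 fold change beyond 1 in either direction. A probe undetected in a group has only a bound there. With 2 arrays per group an exact permutation test cannot go below p = 0.333, and the number of arrays limits the precision.

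Every member was named. From the receptor and relative lists, genes called in a comparison with -GFs medium were named, and otherwise the largest rise and fall with FGF2. Arrays of one replicate number form a set, since the labels describe 1 untreated, 1 FGF2 and 1 BMP4 well per replicate, and arrays of a number deviated together (correlations across genes 0.602, 0.741 and 0.579). Promoter windows and current names came from RefSeq tables of GRCm38.p6. The alternatives were other normalizations, detection filters, probe summaries, a replicate block, an unpaired t-test in place of limma and leaving out each array.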

Additional observations from a re-analysis of the deposited data

How the results depend on the processing

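SPP1 and THBS1 kept their direction with FGF2 in all alternatives run for them. Their log2 fold changes were 4.43 and 2.60 with neqc, and 2.75 to 4.15 and 1.49 to 1.62 when 1 array was left out. With the replicate block the same 3 members were called with FGF2 (SPP1, still at 3.45, CD44 and THBS1), as with every normalization, and the block changed no call of a member, receptor or relative, although it narrowed the FGF2 intervals of the 7 tested members. CD44 was not called without FGF2 replicate 2, which left 2 members, and SPP1 was not in the test when detection on all 6 arrays was required. With an unpaired t-test in place of limma, 1 of 7 members had an unadjusted p under 0.05 for BMP4, beside 432 of 11872 genes. After Benjamini-Hochberg adjustment this t-test called 0 of the 11872 genes with either factor. The 0 members and 0 receptors called, and the adjusted p of 0.271 for ITGA5, therefore say nothing particular to these genes.

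With BMP4 the values of TNC, THBS2 and SPARC changed sign in some settings, and those of the other 4 members did not. SPARC was -0.062 with median scaling. With 1 array left out, TNC ranged from -0.42 to 0.074 (without -GFs replicate 2), THBS2 from -0.41 to 0.32 and SPARC from -0.24 to 0.32. For replicate 2 against replicate 1, neqc left 1 member with an adjusted p under 0.1 instead of 3. Median scaling moved the median of all genes with FGF2 to -0.10 and the split of calls from 271 higher and 148 lower to 208 and 209. The number of genes called with FGF2 fell to 121 higher and 59 lower without FGF2 replicate 1 and to 71 and 33 without FGF2 replicate 2, and was 432 and 362 with neqc. With BMP4, 1 gene was called as reported, 10 with the replicate block and 0 to 2 with 1 array left out. Signals near background limit SPP1 and THBS1 outside FGF2.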
